A study of Mus musculus with 8 samples.

Results

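The 10 genes Lrg1, Hp, Orm1, Orm2, Orm3, Cp, Serpina3n, Saa3, Lbp and Lcn2, which encode secreted acute-phase proteins made by fat as well as by liver, were taken by gene name from a count table of 56953 Ensembl genes, and each name matched 1 gene. They were grouped by what they encode. RNA came from the brown adipose tissue (BAT) of wild-type C57BL/6J mice of either sex, which entered the experiment at 8 to 10 weeks of age. The 4 CAC mice (labelled LLC injection) received 3000000 Lewis Lung Carcinoma (LLC) cells, a mouse lung tumor line that causes cachexia, under the skin of the right flank. The 4 CTR mice (labelled CTRL) received PBS alone, and both groups were followed for 21 days. Only mice in which a tumor formed were kept in the CAC group, the whole tissue was extracted, and the sex of each mouse is not given in the labels.

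The acute-phase response is the shift in plasma proteins that follows infection, injury or tumor growth. Interleukin-1 and interleukin-6 reach the liver, where NF-kB, STAT3 and C/EBP factors raise the genes of positive acute-phase proteins and lower those of negative ones such as albumin. Adipocytes, macrophages and neutrophils transcribe several of the same genes, and in adipose tissue haptoglobin, LRG1, orosomucoid, SAA3 and lipocalin-2 also act as locally made signals.

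Libraries held 1823167 to 4827956 counts. A level of 3 counts corresponded to 0.66 to 1.62 CPM (reads of a gene relative to the library total, scaled with edgeR's TMM factors), and this limit covers counting error only. Adiponectin (Adipoq, 891 ± 73.2 CPM in CTR against 919 ± 43.6 CPM in CAC, SD, n = 4) and the uncoupling protein gene Ucp1 (3965 ± 186 and 4059 ± 601 CPM) were abundant in both groups, so the tissue label matched its defining transcripts. Markers of other cells differed between libraries. The summed level of 12 neutrophil markers was 12.0 to 15.2 CPM in CTR and 174 to 444 CPM in CAC, that of 9 macrophage markers 209 to 234 and 289 to 409 CPM, that of 6 skeletal muscle markers 948 to 2391 and 2076 to 3900 CPM, and that of 5 erythrocyte markers 6180 to 19266 and 14631 to 44312 CPM. The 9 hepatocyte markers summed to at most 3.96 CPM in 7 libraries and to 41.3 CPM in CAC replicate 3. Alb, the defining hepatocyte transcript, was at 5.27 CPM there and at 0 to 0.44 CPM elsewhere, and Cps1 was at 0 in all 8 libraries. In whole tissue, more cells of a type cannot be told apart from more RNA per cell.

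Of the 10 genes, 8 passed edgeR's low-count filter (at least 3.518 CPM in 4 libraries) and were tested among 9876 genes by the quasi-likelihood test with Benjamini-Hochberg adjustment over all of them. Lrg1 alone rose, with an adjusted p below 0.05. Over all genes, 0.932% were called in either direction, 0.739% were called higher in CAC and 0.192% lower. The other 7 tested genes also had higher means in CAC, from a log2 fold change of 0.07 for Orm1 to 0.72 for Lbp, and none of them passed the adjusted threshold. The unadjusted p was below 0.05 and the gene higher in CAC for 5 of the 8 tested (Lrg1, Hp, Cp, Serpina3n and Lbp), against 7.01% of all genes. Lbp passed the filter in only 2 CTR libraries and in 4 CAC libraries, so its place among the tested genes depended on its CAC level, and these counts are descriptions. Saa3 and Lcn2 were too low for the filter.

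**Figure D1:**
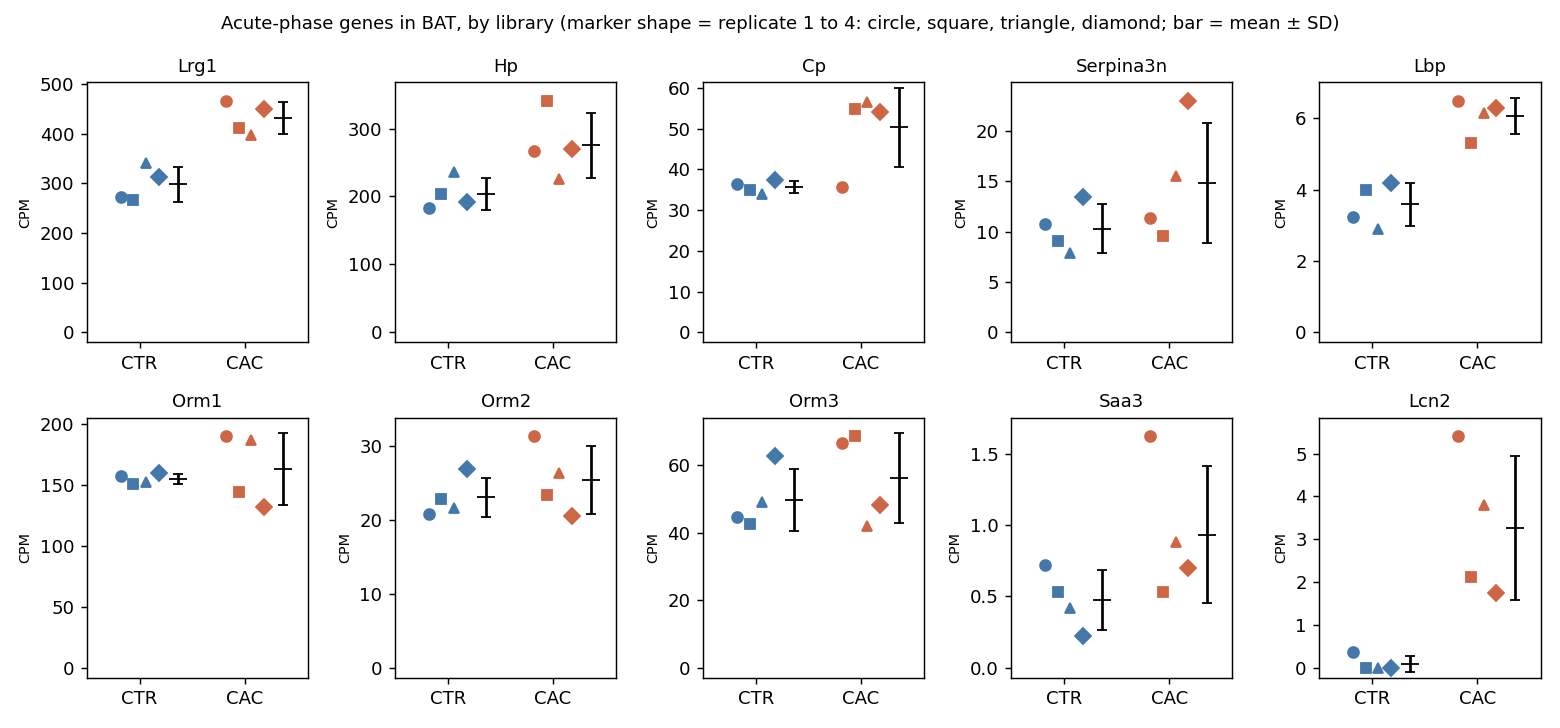
Level of each of the 10 genes in CPM (y axis, linear, own scale per panel) in the 4 CTR (blue) and 4 CAC (orange) libraries. Symbols mark replicates 1 to 4, and the black bars are the mean ± SD. The CAC libraries lay above every CTR library for Lrg1, Lbp and Lcn2, while the groups overlapped for the other genes. Of the 9876 genes tested, which do not include Lcn2, 3.64% were separated in this direction.

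LRG1, leucine-rich alpha-2-glycoprotein, is a secreted glycoprotein known to bind the TGF-beta co-receptor endoglin. Its gene (ENSMUSG00000037095.9, GRCm38 chr17:56119678-56122001, minus strand) was at 272, 266, 341 and 314 CPM in CTR replicates 1 to 4 and at 466, 411, 397 and 449 CPM in CAC replicates 1 to 4. All 4 CAC libraries thus lay above the highest CTR library, a separation found in this direction for 3.64% of the 9876 genes. The mean rose from 298 ± 35.7 to 431 ± 32.0 CPM (SD, n = 4), a 1.45-fold increase. The log2 fold change was 0.53 ± 0.10 (SE, edgeR adjusted p = 0.0104). With 755 to 1422.5 counts per library it was the most deeply counted of the 10 genes. The call was lost without CTR replicate 1 (log2 fold change 0.49, edgeR adjusted p = 0.0664) and was kept in the other 7 fits that left out 1 library, including the one without CAC replicate 3, the library with hepatocyte transcripts. The part of other cell types in the rise was not tested.

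Across the 8 libraries the log2 CPM of Lrg1 was most like that of Gpihbp1, which encodes the capillary anchor of lipoprotein lipase (Pearson r = 0.98), followed by the predicted gene Gm7926 and the pseudogene Rps4x-ps (both r = 0.97). These are descriptions over 8 libraries that share the group difference. Gpihbp1 had 64.3 ± 5.98 CPM in CTR against 88.0 ± 5.57 CPM in CAC (SD, n = 4, log2 fold change 0.45, edgeR adjusted p = 0.0566).

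Haptoglobin and ceruloplasmin both act on the handling of iron in plasma. Haptoglobin binds free hemoglobin, which macrophages clear through CD163, and ceruloplasmin is a copper ferroxidase that loads iron onto transferrin. Hp (ENSMUSG00000031722.11, GRCm38 chr8:109575128-109579172, minus strand) was at 183, 204, 236 and 191 CPM in CTR replicates 1 to 4 and at 267, 341, 225 and 270 CPM in CAC replicates 1 to 4. Of the 4 CAC libraries, 3 were above every CTR library, and CAC replicate 3 lay below the highest CTR library. The means were 203 ± 23.2 and 276 ± 47.9 CPM (SD, n = 4), with a log2 fold change of 0.44 ± 0.12 (SE, edgeR adjusted p = 0.0844). Without CAC replicate 3 the log2 fold change was 0.52 (edgeR adjusted p = 0.0474), and without CTR replicate 3 it was 0.51 (adjusted p = 0.0446), both below the threshold. Without CAC replicate 2 it was 0.32 (edgeR adjusted p = 0.252), and without CTR replicate 1 it was 0.39 (edgeR adjusted p = 0.253). CAC replicate 3, the library with hepatocyte transcripts, had the lowest Hp level of the CAC group, and the part of liver RNA in the Hp values was not tested.

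Cp (ENSMUSG00000003617.17, GRCm38 chr3:19957054-20009145, plus strand) was at 36.3, 34.9, 34.0 and 37.5 CPM in CTR replicates 1 to 4 and at 35.7, 54.8, 56.6 and 54.0 CPM in CAC replicates 1 to 4. CAC replicate 1 lay within the CTR range, and the other CAC libraries lay well above it. The log2 fold change was 0.50 ± 0.14 (SE, edgeR adjusted p = 0.0881). Without CAC replicate 1 it was 0.63 (edgeR adjusted p = 0.00947), the 1 fit that passed of the 8 that left out 1 library. Without CAC replicate 3 it was 0.44 (edgeR adjusted p = 0.225). CTR libraries differed little, with a coefficient of variation of 4.29% against 19.5% in CAC. Cp overlaps Hps3 on the opposite strand, and since the strand setting of the counting is not given, reads from the part they share cannot be told apart.

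Genes that act with this pair were measured too. Trf, the transferrin gene, had 187 ± 16.6 CPM in CTR against 240 ± 42.8 CPM in CAC (SD, n = 4, log2 fold change 0.36, edgeR adjusted p = 0.169). Tfrc, the transferrin receptor gene, was at 19.2 ± 2.67 and 14.3 ± 1.22 CPM (log2 fold change -0.42, edgeR adjusted p = 0.286), and its 4 CAC libraries lay below every CTR library, as was the case for 3.4% of all genes. Cd163 was at 5.67 ± 2.05 and 8.98 ± 5.04 CPM (edgeR adjusted p = 0.413). None of these passed the threshold.

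**Figure D2:**
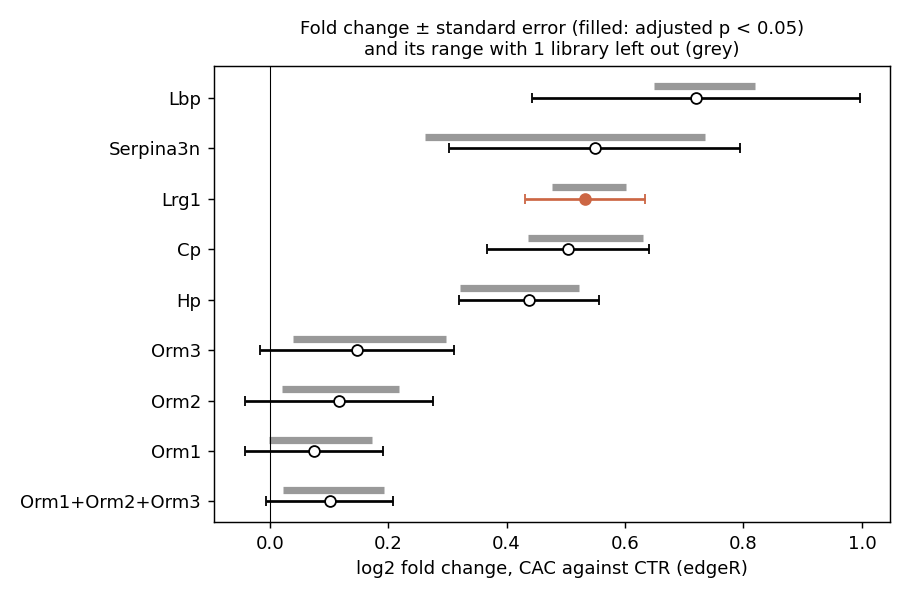
Log2 fold change of CAC against CTR (x axis) for the 8 tested genes and for the sum of Orm1, Orm2 and Orm3, with the standard error of edgeR's fit as bars. The grey band is the range over the 8 fits that left out 1 library. Lrg1, filled, is the one gene with an adjusted p below 0.05, and the 3 Orm genes and their sum lie nearest 0.

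The orosomucoids, or alpha-1-acid glycoproteins, are lipocalins that bind basic drugs and lipids and temper immune cells. Orm1 (GRCm38 chr4:63344560-63348163), Orm3 (chr4:63356162-63359511) and Orm2 (chr4:63362449-63365878) follow one another on the plus strand, and their coding sequences, of 624, 621 and 624 bases, were identical at 89.9% of aligned positions between Orm1 and Orm2, 88.0% between Orm2 and Orm3 and 86.1% between Orm1 and Orm3. This bears on the values because reads of 75 bases can match more than 1 of them. Of the 75-base windows of the annotated transcripts, 97 of 701 in Orm1 also occur in another gene, as do 98 of 701 in Orm2 and 1 of 699 in Orm3. The stretch of 75 coding bases in which they differ most is shown first (bases 141 to 215 in Orm1 and Orm2, 138 to 212 in Orm3), with capitals at the 28 positions where the 3 genes do not all hold the same base.
Orm1: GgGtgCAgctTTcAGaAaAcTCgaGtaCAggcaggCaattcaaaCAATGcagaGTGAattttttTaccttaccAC
Orm2: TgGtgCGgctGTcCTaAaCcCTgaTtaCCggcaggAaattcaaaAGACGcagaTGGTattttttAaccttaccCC
Orm3: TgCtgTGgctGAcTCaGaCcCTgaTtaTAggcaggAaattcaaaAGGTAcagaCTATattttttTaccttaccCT
The first 75-base coding stretch that Orm1 and Orm2 share without a difference (from base 442, or 439 in Orm3) is shown next, with capitals at the 3 positions where Orm3 differs.
Orm1: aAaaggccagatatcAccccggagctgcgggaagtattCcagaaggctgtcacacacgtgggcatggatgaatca
Orm2: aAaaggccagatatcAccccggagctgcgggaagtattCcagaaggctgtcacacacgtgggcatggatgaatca
Orm3: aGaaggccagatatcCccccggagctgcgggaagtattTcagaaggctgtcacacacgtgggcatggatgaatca
A 75-base read of the first stretch belongs to a single gene, whereas one of the second cannot be assigned to Orm1 or Orm2.

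Orm1 (ENSMUSG00000039196.3) was at 157, 151, 153 and 160 CPM in CTR replicates 1 to 4 and at 190, 145, 187 and 132 CPM in CAC replicates 1 to 4. The CTR libraries were nearly alike (coefficient of variation 2.73%), and the CAC libraries lay on both sides of them (18.0%). Orm1 had a log2 fold change of 0.07 ± 0.12 (SE, edgeR adjusted p = 0.851), and without CAC replicate 3 its direction turned, at -0.00077. Orm2 (ENSMUSG00000061540.4) ranged from 20.9 to 26.9 CPM in CTR and from 20.6 to 31.4 CPM in CAC, and its log2 fold change was 0.12 ± 0.16 (SE, edgeR adjusted p = 0.822). Orm3 (ENSMUSG00000028359.5) ranged from 42.6 to 62.8 CPM in CTR and from 41.9 to 68.6 CPM in CAC, and its log2 fold change was 0.15 ± 0.16 (SE, edgeR adjusted p = 0.766).

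Fractions of reads were present in 5 libraries for Orm1, 7 for Orm2 and 5 for Orm3. Lrg1 also held them in 5 libraries and Hp in 4, though neither shares a 75-base transcript window with another gene. Fractions alone thus do not show reads shared within the family. Because of the shared windows, the 3 genes were also counted as 1 feature. Their sum was 228 ± 14.8 CPM in CTR against 245 ± 36.2 CPM in CAC (SD, n = 4), with a log2 fold change of 0.10 ± 0.11 (SE, edgeR adjusted p = 0.754), so no change was detected with or without the division of shared reads. With 1 library left out, the log2 fold change ran from 0.02 to 0.19 for the sum, from 0.02 to 0.22 for Orm2 and from 0.04 to 0.30 for Orm3, and 0 of these fits passed the threshold. Orm1 held 68.2 ± 2.93% of the family's counts in CTR and 66.6 ± 4.99% in CAC, Orm2 10.1 ± 0.69% and 10.3 ± 0.42%, and Orm3 21.7 ± 2.52% and 23.1 ± 5.17% (SD, n = 4). These shares differed between groups by less than the mice within a group did (two-sided exact permutation p of 0.629 to 0.657).

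SERPINA3N is an inhibitor of serine proteases, known for blocking granzyme B and neutrophil elastase. Serpina3n (ENSMUSG00000021091.9, GRCm38 chr12:104406729-104414329, plus strand) was at 10.8, 9.06, 7.88 and 13.4 CPM in CTR replicates 1 to 4 and at 11.4, 9.57, 15.5 and 23.0 CPM in CAC replicates 1 to 4. CAC replicates 3 and 4 were above every CTR library, whereas CAC replicates 1 and 2 lay among them, and the gene varied more between mice than Lrg1 (coefficient of variation 40.2% against 7.43% in CAC). The log2 fold change was 0.55 ± 0.25 (SE, edgeR adjusted p = 0.344). It ranged from 0.26 to 0.74 over the 8 fits that left out 1 library. Its transcript shares 29 of 1990 windows of 75 bases with other genes of the Serpina3 cluster. Of 10 cluster paralogs, Serpina3c alone could be tested, at 16.7 ± 1.75 CPM in CTR against 14.3 ± 3.07 CPM in CAC (SD, n = 4, log2 fold change -0.22, edgeR adjusted p = 0.665). Serpina3k, named after its values were seen, held 0, 2, 0 and 2 counts in CTR and 10, 7, 20 and 7 counts in CAC (0.24 ± 0.28 and 4.36 ± 1.57 CPM, SD, n = 4), too low for the filter.

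Lbp, Saa3 and Lcn2 encode proteins of antibacterial defense. LBP passes lipopolysaccharide to CD14 and TLR4, SAA3 is the serum amyloid A made outside the liver, and lipocalin-2 withholds iron by binding bacterial siderophores and is stored in neutrophil granules as well as secreted by adipocytes. Lbp (ENSMUSG00000016024.10, GRCm38 chr2:158306493-158332852, plus strand) was at 3.24, 3.99, 2.90 and 4.19 CPM in CTR replicates 1 to 4 and at 6.49, 5.32, 6.15 and 6.27 CPM in CAC replicates 1 to 4. All CAC libraries lay above the CTR libraries, as for 3.64% of all genes, yet these levels rest on 7 to 21 counts per library. The log2 fold change was 0.72 ± 0.28 (SE, edgeR adjusted p = 0.258), and in none of the 8 fits without 1 library did the adjusted p fall below 0.248. Of the partners of LBP, Cd14 had 0.88 ± 0.39 CPM in CTR against 1.96 ± 0.33 CPM in CAC, Tlr4 0.92 ± 0.58 and 2.27 ± 0.93 CPM (SD, n = 4), and Ly96 0.71 ± 0.70 and 0.50 ± 0.69 CPM, all too low for edgeR's test.

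Saa3 (ENSMUSG00000040026.9, GRCm38 chr7:46711998-46715700, minus strand) was at the limit of detection, with 2, 2, 1 and 1 counts in CTR replicates 1 to 4 and 3, 1, 3.4 and 2 in CAC replicates 1 to 4. Rounded counts summed to 6 in CTR and 9 in CAC, a ratio of pooled CPM of 2.02 with an exact 95% interval of 0.64 to 6.89, which covers counting error only. Of its 75-base transcript windows, 24 of 2602 also occur in other genes, Malat1 among them, so some of these few reads may not be its own. A difference was not detectable at this depth (exact two-sided permutation p = 0.143, n = 4). The difference in mean CPM, 0.46, was 0.23 without CAC replicate 1. The liver forms Saa1 and Saa2 showed another pattern, with 17 and 39 counts in CAC replicate 3, against at most 3 and 0 in any other library.

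Lcn2 (ENSMUSG00000026822.15, GRCm38 chr2:32384633-32388252, minus strand) had 1, 0, 0 and 0.5 counts in CTR replicates 1 to 4 and 10, 4, 13 and 5 counts in CAC replicates 1 to 4. In CPM, the CAC libraries were at 5.41, 2.13, 3.81 and 1.74, and no CTR library exceeded 0.36. No CTR value reached the CAC range, and the permutation test over mice, exact and two-sided, gave its smallest possible p (0.0286, n = 4). Such a separation was found for 3.64% of the 9876 genes tested, which do not include Lcn2. Rounded counts summed to 32 in CAC and 1 in CTR, a ratio of pooled CPM of 43.1 with an exact 95% interval of 7.20 to 1754 from counting error only. When genes with low counts were kept in the edgeR fit, Lcn2 had an adjusted p of 6.53e-06, and DESeq2 gave it no adjusted p. The difference in mean CPM was 3.18. Without any 1 CTR library it was 3.15 to 3.27 and the exact permutation p was 0.0571 (n = 3 against 4). Without any 1 CAC library it was 2.47 to 3.69 and the exact permutation p was 0.0286 (n = 4 against 3). That is again the smallest possible p, so it does not measure how stable the difference is.

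The neutrophil list does not hold Lcn2. The order of the CAC libraries by Lcn2, replicate 1 above 3, 2 and 4, was the same as that by the summed neutrophil markers, at 444, 292, 204 and 174 CPM. S100a8 and S100a9, which cells other than neutrophils can also transcribe, made up most of that sum in CAC. The other 10 markers, summed after the values had been seen, held 6.84 to 9.32 CPM in CTR and 40.0, 32.2, 29.8 and 19.5 CPM in CAC replicates 1, 3, 2 and 4. The order of the sum was thus the same without that pair, but single markers differed. In the same replicates Retnlg was at 19.5, 13.5, 4.79 and 5.23 CPM. Mmp9 was at 9.73, 8.20, 17.5 and 8.37 CPM, highest in replicate 2. Replicates 2 and 4 held 4 and 5 Lcn2 counts, too few to order them. Within that list S100a8 rose from 3.57 ± 0.84 to 175 ± 85.7 CPM (SD over 4 mice, adjusted p = 0.00515 in edgeR), S100a9 from 1.6 ± 0.79 to 73.5 ± 28.1 CPM (0.000182) and Retnlg from 1.02 ± 0.77 to 10.7 ± 7.06 CPM (0.0155), and these 3 genes passed the filter through their CAC level. The granule genes Ngp and Ltf, stored in neutrophils beside lipocalin-2, were at 0.16 ± 0.20 and 0.09 ± 0.18 CPM in CTR and reached 2.21 ± 0.44 and 1.00 ± 0.76 CPM, in that order, in CAC (SD, n = 4). Neither followed the Lcn2 order across the CAC libraries. Ngp was lowest in replicate 1, at 1.62 CPM, and highest in replicate 3, at 2.64 CPM. Ltf was highest in replicate 3, at 2.05 CPM, and next in replicate 1. Both genes rest on few counts, at most 9 per CAC library for Ngp and 7 for Ltf. Like Lcn2 and the neutrophil sum, the erythrocyte marker sum was highest in CAC replicate 1 and next in replicate 3, at 44312 and 37897 CPM. The part of neutrophils in the Lcn2 difference was not tested.

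**Figure D3:**
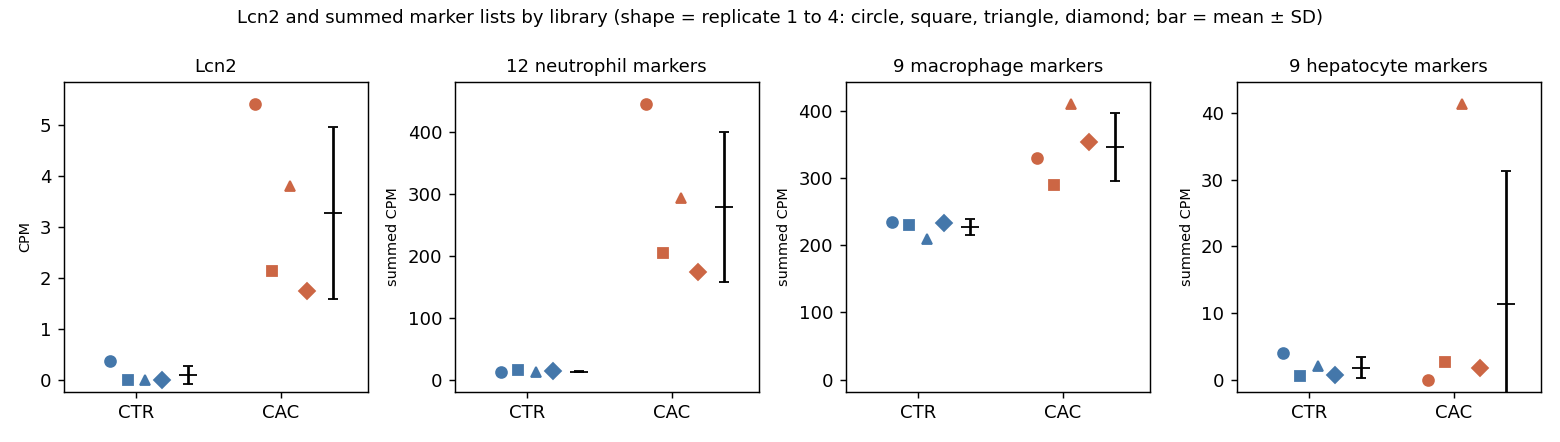
Lcn2 (CPM) and the summed CPM of the neutrophil, macrophage and hepatocyte marker lists (y axes, linear) in the 4 CTR (blue) and 4 CAC (orange) libraries, with symbols for replicates 1 to 4 and bars for the mean ± SD (cut off at the axis for the hepatocyte sum in CAC). Lcn2 and the neutrophil sum are both highest in CAC replicate 1 and next in replicate 3, and the hepatocyte sum is high in CAC replicate 3 only, at 41.3 CPM.

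Scaled to the length of their annotated exons, the most abundant of the 10 in CTR were Lrg1 (212 ± 25.4 CPM per kb, SD, n = 4) and Orm1 (200 ± 5.48), whose ranges overlapped. They were followed by Hp (127 ± 14.4), Orm3 (64.4 ± 11.8) and Orm2 (29.8 ± 3.47 CPM per kb), with no overlap between these neighbors. Serpina3n (4.99 ± 1.17) and Cp (3.73 ± 0.16 CPM per kb) overlapped at a lower level, and Lbp, Saa3 and Lcn2 were below 1 CPM per kb. In CAC, Lrg1 (306 ± 22.7 CPM per kb) lay above every other gene without overlap, and Orm1 (211 ± 38.0) and Hp (172 ± 29.8 CPM per kb) overlapped. Lcn2 had the lowest mean in CTR, where its range overlapped that of Saa3. In CAC it reached 1.25 ± 0.64 CPM per kb and overlapped Lbp, at 1.25 ± 0.11. The exon lengths are the union over all annotated transcripts, 9566 bases for Cp and 775 for Orm1, so genes with many transcripts are scaled down most. The order depends on this scaling, since in unscaled CPM Hp lay above Orm1 in every CTR library and Cp (35.7 ± 1.53 CPM) above Orm2 (23.1 ± 2.69 CPM). The libraries came from a digital mRNA-seq service, and the sources used here do not state whether its reads cover whole transcripts or only their ends. If only the ends were read, read numbers would not grow with length.

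The summed level of the 10 genes was 729 to 845 CPM in the CTR libraries and 961 to 1082 CPM in the CAC libraries, a sum that Lrg1, Hp and Orm1 dominate. The genes did not vary as a block within the groups. With the group means removed, the correlation of log2 CPM over the 8 libraries was positive in 13 and negative in 15 of the 28 pairs of tested genes, with a median Pearson r of -0.04. The highest value was that of Orm1 with Orm2 (r = 0.82), which share reads, and the lowest that of Hp with Serpina3n (r = -0.60).

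Other genes of the response were taken from lists. Of 30 further positive acute-phase genes, 9 could be tested, 8 were higher in CAC (50% of all genes) and 2 were called higher (0.739% of all genes). Their median log2 fold change was 0.50, whereas that of all 9876 genes was close to 0. The called genes were Mt1, a metallothionein that binds zinc (817 ± 91.2 CPM in CTR against 1173 ± 19.0 CPM in CAC, SD, n = 4, edgeR adjusted p = 0.00606), and C3, the central complement component (377 ± 12.8 and 529 ± 69.8 CPM, edgeR adjusted p = 0.0166). The 21 not tested included the liver genes Fga, Fgb, Fgg, Hpx, Crp and Apcs. Fgb, for one, had 37 counts in CAC replicate 3 and at most 1 in any other library. Of 11 negative acute-phase genes 3 could be tested and 0 were called. Those with an unadjusted p below 0.05 were Trf, given above, and Rbp4, the retinol carrier gene, at 141 ± 8.87 CPM in CTR against 99.7 ± 33.6 CPM in CAC (SD, n = 4, log2 fold change -0.51, edgeR adjusted p = 0.265).

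Of 14 genes for the inducing cytokines and their receptors, 6 could be tested. All 6 were receptor genes with a higher mean in CAC (median log2 fold change 0.34), 4 had an unadjusted p below 0.05 and 0 were called, where 50% of all genes were higher in CAC and 7.01% were higher with such a p. Il6st, the shared signaling chain gp130, had 40.8 ± 1.75 CPM in CTR against 50.9 ± 6.01 CPM in CAC (SD, n = 4, log2 fold change 0.31, edgeR adjusted p = 0.258). Its CAC libraries all lay above the CTR libraries, as for 3.64% of all genes. Osmr, the oncostatin M receptor gene, was at 1.87 ± 1.26 and 3.88 ± 1.30 CPM (log2 fold change 1.10, edgeR adjusted p = 0.259), and passed the filter in only 1 CTR and 3 CAC libraries. None of the cytokine genes passed the filter. Il1b had 1, 3, 1 and 2 counts in CTR and 3, 9, 6 and 3 counts in CAC, or 0.50 ± 0.20 and 2.30 ± 1.68 CPM (SD, n = 4), with every CAC library above every CTR library in CPM. It was named after its values were seen, so the exact two-sided permutation p (0.0286, the smallest possible) only restates this separation. Il6 had 0 counts in every library.

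Of 16 genes for the signaling kinases, transcription factors and feedback regulators that follow, 14 could be tested, 9 of them higher and 5 lower in CAC (median log2 fold change 0.14), and 0 were called. Stat3 had 81.3 ± 5.50 CPM in CTR against 106 ± 3.87 CPM in CAC (SD, n = 4, log2 fold change 0.38, standard error 0.10, edgeR adjusted p = 0.0881). Its CAC libraries all lay above the CTR libraries, as for 3.64% of all genes. Pim1, a kinase gene known as a STAT target, had the opposite sign, at 251 ± 22.7 and 189 ± 29.2 CPM (log2 fold change -0.41, standard error 0.11, edgeR adjusted p = 0.0881), and its CAC libraries all lay below the CTR libraries, as for 3.4% of all genes. Socs3, the feedback inhibitor of gp130 signaling, was below the filter, at 0.67 ± 0.47 CPM in CTR against 2.61 ± 1.10 CPM in CAC, also without overlap. It was named after its values were seen, so the exact two-sided permutation p (0.0286, n = 4, the smallest possible) only restates this separation. Of 20 receptors, ligands and partners of the secreted proteins, 9 could be tested and 0 were called. Scarb1, the lipoprotein receptor SR-B1 known to bind SAA, had the smallest p, at 43.1 ± 8.26 and 59.4 ± 8.59 CPM (SD, n = 4, log2 fold change 0.45, edgeR adjusted p = 0.149). Eng, the endoglin gene, was at 4.11 ± 1.75 and 4.47 ± 0.99 CPM (edgeR adjusted p = 0.96). Slc22a17, a lipocalin-2 receptor gene, was at 7.50 ± 1.52 and 4.62 ± 2.85 CPM (edgeR adjusted p = 0.5).

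RefSeq promoter windows (250 bases before to 50 after the start, GRCm38.p6) were at hand for 7 of the 10 genes. They were searched on both strands for a STAT motif (TTCNNNGAA), a C/EBP core (TTGCNNAA) and an NF-kB motif (GGG and TTCC with any 3 bases between them). The C/EBP and NF-kB letters were set after the promoters of these genes had been seen, and no promoter held more than 1 match. The C/EBP letters were found in 5 of the 7 (Orm2, Orm3, Cp at the second of its 2 starts, Saa3 and Lcn2) and in 10.8% of all 32851 windows. The NF-kB letters were found in 2 (Lrg1 and Serpina3n) and in 5.56% of all, and the STAT letters in 0 and in 8.30% of all. Since the C/EBP and NF-kB letters were chosen with the promoters in view, and Cp has 2 windows, the members' counts cannot be set against the shares of all windows. A match describes the letters and not a bound site. The 250 bases before the start are shown for Lrg1, the gene that was called, for Lcn2, which was nearly absent in CTR, and for the neighbors Orm2 and Orm3, with the matches in capitals. They lie at chr17:56121947-56122196 (minus strand), chr2:32387740-32387989 (minus strand), chr4:63362199-63362448 (plus strand) and chr4:63355908-63356157 (plus strand), in that order.
Lrg1: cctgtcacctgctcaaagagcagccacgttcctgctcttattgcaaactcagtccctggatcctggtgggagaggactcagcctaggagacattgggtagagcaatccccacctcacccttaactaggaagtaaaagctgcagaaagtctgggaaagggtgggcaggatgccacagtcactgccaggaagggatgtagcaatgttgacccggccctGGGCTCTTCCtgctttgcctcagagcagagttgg
Lcn2: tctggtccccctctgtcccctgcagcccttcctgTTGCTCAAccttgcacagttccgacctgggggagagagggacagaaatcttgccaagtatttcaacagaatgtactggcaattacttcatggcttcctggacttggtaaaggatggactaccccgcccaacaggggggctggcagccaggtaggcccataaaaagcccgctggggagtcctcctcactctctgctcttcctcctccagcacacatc
Orm2: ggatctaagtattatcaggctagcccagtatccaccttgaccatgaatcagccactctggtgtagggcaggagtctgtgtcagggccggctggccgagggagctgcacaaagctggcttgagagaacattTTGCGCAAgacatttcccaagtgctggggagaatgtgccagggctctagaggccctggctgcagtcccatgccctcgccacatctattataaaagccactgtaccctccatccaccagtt
Orm3: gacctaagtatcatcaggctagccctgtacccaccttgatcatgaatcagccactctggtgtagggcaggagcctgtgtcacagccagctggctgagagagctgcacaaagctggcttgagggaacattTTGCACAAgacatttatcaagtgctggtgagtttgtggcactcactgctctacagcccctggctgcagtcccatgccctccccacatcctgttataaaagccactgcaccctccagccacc
The capitals mark GGGCTCTTCC in Lrg1, TTGCTCAA in Lcn2, TTGCGCAA in Orm2 and TTGCACAA in Orm3, so Lrg1 holds the NF-kB letters and the other 3 hold the C/EBP letters.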

How the data were processed

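Libraries from BAT, 1 per mouse and 4 per group, had single-end reads of 75 cycles and were grouped by their titles. Per the labels, the authors checked reads with FastQC 0.11.9, aligned them with HISAT2 2.2.1 to mm10 and counted them with featureCounts, with its multi-mapping option. The deposited table holds expected counts, not normalized, some with fractions of a read. A second deposited table of 24792 genes holds a signal, in which each library's counts, cut to whole numbers, were scaled by 1 size factor. This held for 100% of the 197152 values compared, to within 1e-06 of the count plus 1, and 1184 values of genes without a unique name match were not compared. Of the Ensembl IDs, 0.0615% matched GENCODE M21 with and 91.4% without the version, and M21 (GRCm38) gave the coordinates.

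After rounding, CAC was compared with CTR in edgeR 4.0.16 under R 4.3.3 (filterByExpr, TMM, quasi-likelihood test with robust estimation, no covariate, Benjamini-Hochberg adjustment, threshold 0.05). Standard errors are the log2 fold change over the square root of its F. Genes below the filter were compared by exact two-sided permutation tests over 70 assignments. Tested on simulated counts, this fit called 81 of 96 genes with a true log2 change of 1, 92 of 94 with a change of 2 and 16 of 9447 with none. Changes between 0 and 1 were not simulated. The log2 fold changes of the tested members, 0.07 to 0.72, lie there, so the rate of detection at their size is not known. The members and lists were chosen with earlier results of these data known, and lists are described by counts without a set test. Named are the members, in each list the genes called (at most 6) or, with none, the 2 with the smallest p, Adipoq and Ucp1, and the 3 genes most like Lrg1. Other names were picked after their values were seen. Log2 CPM used a prior count of 2. Alternatives were DESeq2 1.42.0, other scalings and filters, dropped decimals, limma 3.58.1 on the log2 of the deposited signal plus 1, a replicate block and each library left out.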

Additional observations from a re-analysis of the deposited data

Results flagged for a closer look

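A single library stood well apart from its group for 5 of the 42 sets of 4 values examined, where about 1 in 20, or 2.1 sets, would do so by chance. Cp had 35.7 CPM in CAC replicate 1, the other CAC libraries holding 54.0 to 56.6 CPM. Lcn2 was at 0.36 CPM in CTR replicate 1, a single count, against 0 in the other CTR libraries after rounding. The summed CPM of the hepatocyte markers was 41.3 in CAC replicate 3 against 0 to 2.66 in the other CAC libraries. CTR replicate 3 had the lowest macrophage marker sum (208.7, the other CTR libraries 231 to 234), and CAC replicate 4 the lowest endothelial marker sum (205.7, the other CAC libraries 277 to 283). The part of these libraries in the results was not tested beyond leaving each of them out.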

How the results depend on the processing

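The 92 genes called became 351 without the low-count filter and 140 with the replicate block, and ranged from 42 to 135 with 1 library left out. Of the 10 genes, 1 was called (0.932% of the 9876 genes tested), 4 without the filter (Lrg1, Lcn2, Hp at 0.41 and Cp at 0.48 on the log2 scale, edgeR adjusted p = 0.0139 and 0.0402), and 0 to 2 with 1 library left out. The share of all genes called without the filter is not given here, so the 4 cannot be set against it. The fits with 1 library left out gave log2 fold changes of 0.48 to 0.60 for Lrg1, 0.32 to 0.52 for Hp, 0.44 to 0.63 for Cp and -0.00077 to 0.17 for Orm1, and a difference of 2.47 to 3.69 CPM for Lcn2. Under DESeq2, library size and upper quartile scaling, at least 10 counts in every library, dropped decimals, limma on the deposited signal and the block, Lrg1 kept its call (log2 fold change 0.51 to 0.54), and none of the 8 tested genes changed sign where fitted. Lbp could not be fitted with 10 counts required in every library, and Saa3 and Lcn2 were recomputed with library size scaling and with each library left out. The cause of these differences was not tested. Same-numbered libraries of the 2 groups did not deviate together (r of -0.02 to 0.04), so the replicate block has no basis in a pairing, and under it 1 of the 10 genes was called. Depth limits Saa3, Lcn2 and Lbp, where 3 counts equal 0.66 to 1.62 CPM.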

Other observations

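Genes of the cell type lists also differed between the groups (mean ± SD in CPM, n = 4, edgeR adjusted p). The macrophage genes C1qa and C1qb, which encode chains of complement C1q, rose from 42.8 ± 6.13 to 76.3 ± 8.29 CPM (0.00103) and from 30.8 ± 5.59 to 61.1 ± 12.4 CPM (0.00137). C1qc, another chain gene, had 12.5 ± 4.02 against 15.4 ± 5.75 CPM (0.637). All 8 tested macrophage markers were higher in CAC (50% of all genes) and 2 were called higher (0.739% of all genes). Ppargc1a, the coactivator gene of mitochondrial biogenesis and thermogenesis, rose from 51.8 ± 10.4 to 86.5 ± 16.9 CPM (0.0201). It was the one gene called among 8 brown adipocyte markers, of which 5 were higher and 3 lower in CAC (median log2 fold change 0.03). The respiratory chain genes Cox7a1 and Cox8b, named after their values were seen, had 1180 ± 55.4 against 1014 ± 82.0 CPM (0.292) and 1085 ± 71.8 against 931 ± 64.1 CPM (0.286). For both, every CAC library lay below every CTR library, as for 3.4% of all genes.

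No gene of the adipocyte, endothelial, fibroblast, skeletal muscle or erythrocyte lists was called. In the adipocyte list, Cfd, the adipsin gene, had 3952 ± 611 CPM in CTR against 5622 ± 1029 in CAC (0.0881), and Plin1, which coats lipid droplets, 664 ± 15.4 against 550 ± 59.8 (0.192). The endothelial genes Vwf and Kdr had 5.03 ± 1.77 against 8.67 ± 1.47 CPM (0.186) and 169 ± 21.1 against 135 ± 22.7 CPM (0.259). The fibroblast genes Dpt and Col3a1 had 35.2 ± 1.25 against 28.4 ± 4.70 CPM (0.389) and 119 ± 27.7 against 78.2 ± 29.1 CPM (0.423). Of the 7 tested genes of that list, 3 were higher and 4 lower in CAC (median log2 fold change -0.15). The skeletal muscle genes Myh4 and Tnnt3 had 209.7 ± 65.4 against 513 ± 191 CPM (0.21) and 222 ± 101 against 483 ± 123 CPM (0.291). The erythrocyte genes Hbb-bt and Alas2 had 365 ± 159 against 1148 ± 573 CPM and 13.0 ± 8.75 against 38.6 ± 18.3 CPM (both 0.28).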
